A study of Mus musculus with 4 samples.

Results

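The genes described here encode the phase II conjugating enzymes, which join a water-soluble group to drugs, hormones, bile acids and reactive products of metabolism. They were chosen by gene symbol alone, as every gene on the array named as a glutathione transferase of the alpha, kappa, mu, omega, pi, theta or zeta class, a microsomal glutathione transferase, a UDP-glycosyltransferase of families 1 to 3, or a sulfotransferase. Of the 16504 genes with a value, 46 met this rule: 23 of the glutathione family, 10 of the glucuronide family and 13 of the sulfate family. They are measured by 58 features, 43 genes by a single one and 3 by several, and no filter on low values was applied, so all 46 entered the fit. RefSeq lists 67 protein-coding mouse genes under the same symbols, and the others were not analysed here. Because most of the 46 lie in tandem clusters of related copies, a feature may also bind the transcript of a neighbouring copy, and each value is that of the feature under its annotated name.

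The RNA came from the livers of polygenic obese mice at day 14 of a feeding trial, in which the treated mice ate conjugated linoleic acid (CLA, a group of isomers of the ordinary fatty acid) and the control mice ate linoleic acid (LA). Every RNA was a pool of a few liver samples, so differences between single mice are not visible, and the labels give no sex, age, dose or isomer. Both kinds of mouse share the obese background, and no lean or untreated group enters the comparison. There were 4 arrays, each hybridised with a CLA pool and an LA pool in the dyes Cy5 and Cy3. The CLA pool carried Cy5 on arrays 1 and 2, and Cy3 on arrays 3 and 4. Whether any arrays share pools is not stated, so the p-values below measure only the spread between these arrays, which may be technical, and the number of arrays limits the precision. Ratios hold no expression level, so the liver identity of the RNA and the abundance of each transcript could not be checked. In RNA of whole tissue, fewer cells of a type and less RNA per cell cannot be told apart.

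The cytosolic glutathione transferases pass glutathione to electrophiles such as the aldehydes of lipid peroxidation, and membrane-bound relatives act on lipid hydroperoxides and leukotrienes. The UDP-glucuronosyltransferases of the endoplasmic reticulum transfer glucuronic acid to phenols, steroids, bilirubin and bile acids. The cytosolic sulfotransferases transfer sulfate to phenols, catecholamines, steroids, bile acids and cholesterol. In liver all 3 families are known targets of the xenobiotic receptors, and many glutathione transferases are also known targets of the stress factor Nrf2.

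Each gene is given by 2 numbers, because the labels name the dyes but not the direction of the deposited ratio. The half-difference is the mean log2 ratio of arrays 1 and 2 minus that of arrays 3 and 4, divided by 2. It equals the log2 ratio of CLA over LA if the deposited values are Cy5 over Cy3. The four-array mean is the plain mean of the deposited values. Where an array is left out below, it is the mean of the 2 orientation means and not the plain mean of the remaining arrays. It equals the log2 ratio of CLA over LA if the values were already turned so that CLA is on top. Under each reading the other number is the dye effect, and an inverted ratio would turn the sign of both. The data used here do not settle the reading, so positive and negative below describe the deposited values and not a rise or fall with CLA. The values are taken as base 10 logarithms and were multiplied by 3.32 to give log2. If the base were 2, every log2 value would be smaller by that factor, while signs and p-values would stay as they are. Across the whole table the medians of the 4 arrays lay between -0.02 and 0.01. Arrays of the same orientation correlated positively over all genes (Pearson r of 0.37 for arrays 1 and 2 and 0.73 for arrays 3 and 4, across genes, which are not independent replicates). Arrays of opposite orientation correlated negatively, from -0.63 to -0.20, and over the 46 genes the range was -0.61 to -0.06. By rank (Spearman) the range over the 46 genes was -0.61 to -0.29.

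The sulfate and glucuronide families stood mostly above 0 in the half-difference, whereas the glutathione family was divided. Of the 13 sulfotransferase genes 10 had a positive half-difference, with a median of 0.32. Of the 10 glucuronide genes 8 were positive, with a median of 0.23. Of the 23 glutathione genes 10 were positive and 13 negative, with a median of -0.02. Over all 16504 genes 52.5% were positive and the median was 0.02. These medians are descriptions without a test, since the members were chosen with earlier results known.

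In the four-array mean the order of the families was different, and most of the 46 genes lay slightly below 0. There were 31 negative and 15 positive values, against 50.1% positive over all genes. The medians were -0.15 for the sulfate family, -0.07 for the glucuronide family and -0.03 for the glutathione family, beside 0.0006 over all genes. With arrays scaled to one spread they were -0.08, -0.02 and 0.004, so that the sign of the glutathione median turned. Without array 4 the sulfate median was -0.09, and without array 2 the glucuronide median was -0.03. The sulfate family had 10 of 13 values below 0, the glucuronide family 7 of 10 and the glutathione family 14 of 23.

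**Figure D1:**
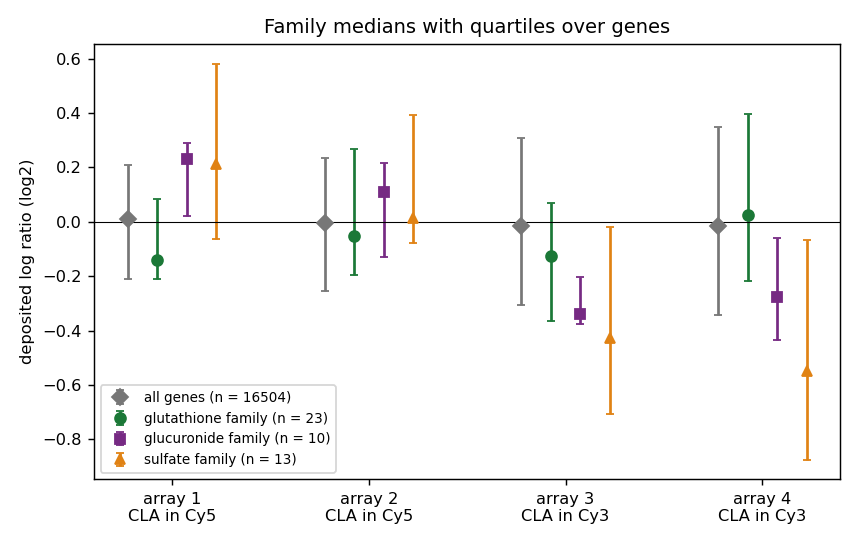
Median log2 ratio of each family on each of the 4 arrays as deposited, with bars from the lower to the upper quartile over genes and all 16504 genes in grey. The sulfate medians were 0.21, 0.01, -0.43 and -0.55 on arrays 1 to 4, the glucuronide medians 0.23, 0.11, -0.34 and -0.28, and the glutathione medians -0.14, -0.05, -0.12 and 0.02.

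By array, the sulfate and glucuronide medians were above 0 on both arrays with CLA in Cy5 and below 0 on both with CLA in Cy3. On array 3, 9 of 10 glucuronide genes and 10 of 13 sulfate genes were negative. On array 1, 8 of 10 and 9 of 13 were positive. The distance from 0 was larger on arrays 3 and 4 than on array 2, where the sulfate median was 0.01. The glutathione medians stayed between -0.14 and 0.02 on the 4 arrays.

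A test across all 16504 genes with limma called 9 of the 46 members for the half-difference, at an adjusted p under 0.05 (19.6%, against 17.1% of all genes), so the share of members called was close to the background. The positive direction held 8 of these 9 (17.4% of the members, against 7.37% of all genes) and the negative direction 1 (2.17%, against 9.72%). By family, 6 of 13 sulfate genes, 2 of 10 glucuronide genes and 1 of 23 glutathione genes were called. At an unadjusted p under 0.05 the count was 19 of 46 members and 6348 of all genes. The four-array mean called 0 members and 0 genes in all (0.00%) with limma, with the lowest adjusted p at 0.35. At an unadjusted p under 0.05 there were 8 of 46 members (17.4%) and 2235 of all genes (13.5%), and robust moderation also called 0. The count depended on single arrays. Leaving out any 1 array leaves 1 array of its orientation. Most or all calls of the half-difference were then lost, among the members and over all genes alike. The half-differences of the 9 stayed between 0.77 and 1.23 times their size in these 4 fits. With arrays 1 and 3 and arrays 2 and 4 averaged as possible shared pools, 0 members and 125 of all genes passed in limma. At an unadjusted p under 0.05 there were 21 members and 5588 of all genes.

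**Figure D2:**
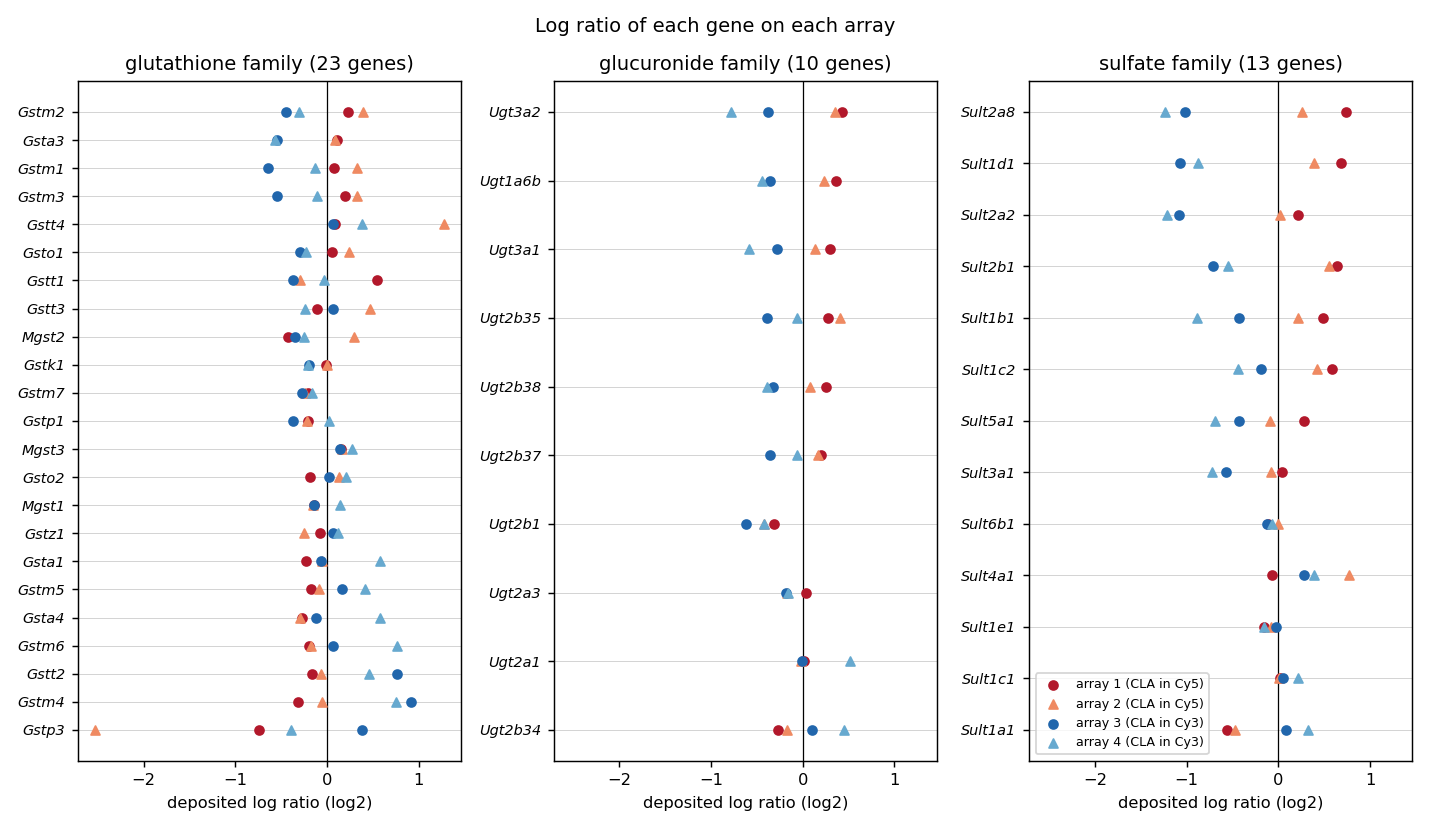
Deposited log2 ratio (x axis) of each of the 46 genes on each of the 4 arrays, by family and ordered by half-difference, with red tones for arrays with CLA in Cy5 and blue tones for arrays with CLA in Cy3. Red and blue points separate widely for the sulfotransferase genes Sult2a8, Sult1d1, Sult2a2 and Sult2b1.

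The sign patterns of single genes show the same division. The log ratio was positive on arrays 1 and 2 and negative on arrays 3 and 4 in 17 of 46 members (37.0%, against 21.3% of all genes). That pattern held 6 of 10 glucuronide, 6 of 13 sulfate and 5 of 23 glutathione genes. The opposite pattern was seen in 7 members (15.2%, against 21.6%), 5 of them of the glutathione family. One sign on all 4 arrays was seen in 7 members (15.2%, against 9.64%), with Gstt4, Mgst3 and Sult1c1 positive and Gstm7, Sult1e1, Sult6b1 and Ugt2b1 negative. Both of arrays 1 and 2 lay above both of arrays 3 and 4 in 20 members (against 35.0% of all genes) and below them in 10 (against 32.2%).

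Among the hydroxysteroid sulfotransferases, which sulfate steroids, bile acids and cholesterol, all 3 measured genes were called with a positive half-difference. Sult2a8, known in mouse liver for the sulfation of bile acids, had log2 ratios of 0.73, 0.26, -1.02 and -1.23 on arrays 1 to 4. The orientations did not overlap, and its half-difference of 0.81 ± 0.11 (SE, n = 4 arrays, limma adjusted p = 0.027) was the highest of the 46, equal to 1.75-fold. Sult2a2, from the same gene cluster on chromosome 7, read 0.21, 0.01, -1.08 and -1.22. Here arrays 1 and 2 were near 0 and arrays 3 and 4 far below it, so that Sult2a2 gave both a half-difference of 0.63 ± 0.08 (adjusted p = 0.026) and a four-array mean of -0.52 ± 0.08 (adjusted p = 0.35). Sult2b1, the cholesterol sulfotransferase, read 0.64, 0.56, -0.71 and -0.55. Its values were nearly mirror images between the orientations, with a half-difference of 0.61 ± 0.08 (adjusted p = 0.025) and a four-array mean of -0.02 ± 0.08.

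The Sult1 genes, whose enzymes act on phenols, catecholamines, thyroid hormone and oestrogen, went different ways. Sult1d1, known in mice for catecholamines, read 0.68, 0.39, -1.07 and -0.87, with a half-difference of 0.75 ± 0.09 (limma adjusted p = 0.0245, 1.69-fold). Sult1b1, a thyroid hormone sulfotransferase, lies next to it on chromosome 5 and read 0.48, 0.22, -0.43 and -0.88, with 0.50 ± 0.11 (adjusted p = 0.049, kept in 1 of 12 alternative fits). Both had arrays 1 and 2 above 0 and arrays 3 and 4 below it. Sult1e1, the oestrogen sulfotransferase and the next gene after Sult1d1, read -0.16, -0.08, -0.02 and -0.16, all within 0.16 of 0, with a half-difference of -0.01 ± 0.08. Sult1c2 read 0.58, 0.42, -0.19 and -0.44, with 0.41 ± 0.09 (adjusted p = 0.046). Its neighbour on chromosome 17, Sult1c1, read 0.01, 0.01, 0.05 and 0.22 and did not pass. Sult1a1, the main phenol sulfotransferase, had the opposite pattern to Sult1d1, with -0.56, -0.47, 0.08 and 0.33 and a half-difference of -0.36 ± 0.09 (adjusted p = 0.054), which missed the threshold.

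The remaining sulfotransferase genes did not pass. Sult3a1, an amine sulfotransferase, read 0.04, -0.08, -0.57 and -0.72, and its four-array mean of -0.33 ± 0.08 (adjusted p = 0.35) was as large as its half-difference of 0.31 ± 0.08 (adjusted p = 0.064). Sult5a1 read 0.28, -0.09, -0.43 and -0.69, with arrays 3 and 4 below both others. Sult4a1, known from brain, read -0.06, 0.77, 0.28 and 0.39, with array 2 the highest, and its four-array mean went from 0.34 to 0.14 without that array. Sult6b1 was slightly negative on all 4 arrays, down to -0.12.

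**Figure D3:**
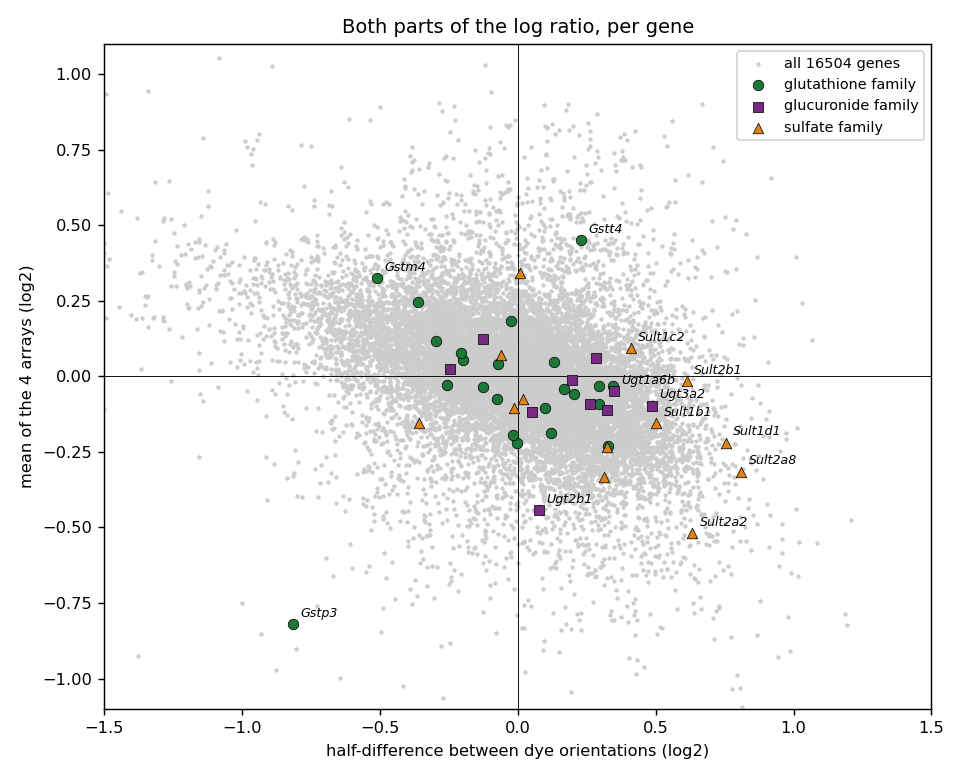
Half-difference between the dye orientations (x axis, log2) against the mean of the 4 arrays (y axis, log2) for all 16504 genes in grey and the 3 families in colour, with genes outside the axis range not drawn. Sult1d1 and Sult2a8 lie farthest right of the 46, at 0.75 and 0.81, while Gstp3 is the lowest of them, at -0.82 on both axes.

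In the glucuronide family the 2 called genes were Ugt3a2 and Ugt1a6b, both positive. Ugt3a2, a family 3 enzyme whose human counterpart uses sugars other than glucuronic acid, read 0.43, 0.35, -0.38 and -0.78, with a half-difference of 0.49 ± 0.10 (limma adjusted p = 0.043, 1.40-fold). Its neighbour Ugt3a1 on chromosome 15 read 0.30, 0.13, -0.28 and -0.59, the same pattern at a smaller size, with 0.32 ± 0.09 (adjusted p = 0.078). Ugt1a6b, of the phenol-conjugating Ugt1a locus, read 0.37, 0.23, -0.36 and -0.44, with 0.35 ± 0.08 (adjusted p = 0.0495, lost in all 12 alternative fits, where its half-difference ran from 0.32 to 0.38). It was the single gene measured from that locus, where transcripts of different first exons are known to share their other exons.

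The 7 measured Ugt2 genes, which conjugate steroids and bile acids and form one cluster on chromosome 5, included none that passed. Ugt2b35, Ugt2b37 and Ugt2b38 were positive on arrays 1 and 2 and negative on arrays 3 and 4, with half-differences of 0.28, 0.20 and 0.26. Ugt2b35 passed once a smooth trend over the array surface was removed (0.35, limma adjusted p = 0.041). The 3 features of Ugt2b37 gave half-differences from 0.07 to 0.31, a wider range than that between these genes. Ugt2b34 had the reverse pattern, with -0.27, -0.17, 0.10 and 0.45 and a half-difference of -0.25 ± 0.10 (adjusted p = 0.14).

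Ugt2b1 differed from its neighbours in keeping its sign. It read -0.31, -0.43, -0.62 and -0.42 on arrays 1 to 4, and the orientations did not separate, as array 4 lay close to array 2. The four-array mean was -0.44 ± 0.08, equal to 1.36-fold, and ran from -0.49 to -0.39 when single arrays were left out. It did not pass (limma adjusted p = 0.35, unadjusted p = 0.0041), as no gene did for that number. Ugt2a3 had 3 of 4 values between -0.18 and -0.16 with array 1 at 0.04. Ugt2a1, known from the olfactory epithelium, was within 0.02 of 0 on arrays 1 to 3 and at 0.51 on array 4.

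**Figure D4:**
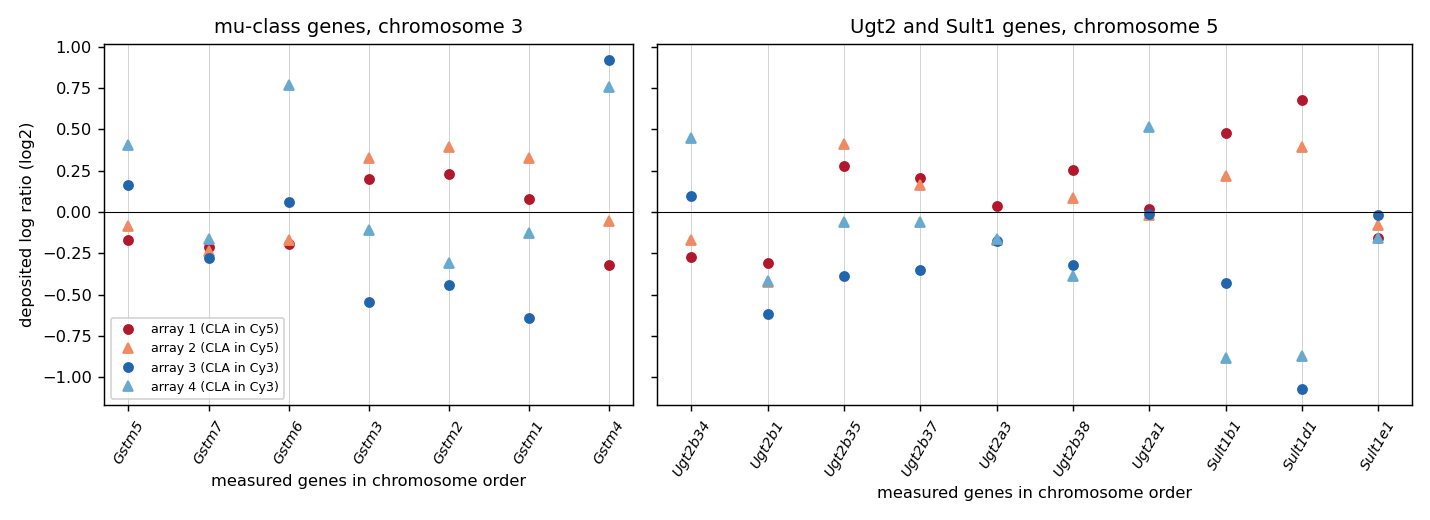
Deposited log2 ratio (y axis) of the measured mu-class genes on chromosome 3 and the measured Ugt2 and Sult1 genes on chromosome 5, in their order along the chromosome, with 1 symbol per array. Gstm3, Gstm2 and Gstm1 have red above blue while Gstm5, Gstm6 and Gstm4 on either side of them have blue above red.

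The mu-class glutathione transferases, abundant cytosolic enzymes of liver, follow one another on chromosome 3 in the order Gstm5, Gstm7, Gstm6, Gstm3, Gstm2, Gstm1 and Gstm4, and all 7 were measured. The 3 in the middle had positive half-differences. Gstm2 read 0.23, 0.40, -0.45 and -0.31 (0.35 ± 0.08, limma adjusted p = 0.054), and Gstm1, the main hepatic form, read 0.08, 0.33, -0.64 and -0.13 (0.29 ± 0.12, adjusted p = 0.15). Gstm3 read 0.20, 0.33, -0.54 and -0.11. All 3 had their lowest value on array 3, and none passed. Gstm1 and Gstm3 did once a smooth trend over the array surface was removed (0.45 and 0.41, limma adjusted p = 0.035 and 0.036). By feature number, taken as the position on the array, both lie in the last row. The part of position in their values was not tested.

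The flanking mu-class genes ran the other way. Gstm4 read -0.32, -0.05, 0.92 and 0.75, and its half-difference of -0.51 ± 0.09 (limma adjusted p = 0.035, 1.43-fold) was the only negative call among the 46. Gstm6 read -0.19, -0.17, 0.06 and 0.77 and Gstm5 read -0.17, -0.09, 0.17 and 0.41, neither past the threshold. Both were above 0 on arrays 3 and 4 and below 0 on arrays 1 and 2. Gstm7 was negative on all 4 arrays within a narrow range, -0.28 to -0.16, with a half-difference of 0.00 and a four-array mean of -0.22 ± 0.08 (adjusted p = 0.36). Features of these closely related transcripts may share targets, which was not tested.

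Gsta4, which conjugates the lipid peroxidation product 4-hydroxynonenal, is represented by 10 replicate spots of 1 accession, and so gives the measurement error within an array. The spots had means of -0.28 ± 0.06, -0.29 ± 0.24, -0.12 ± 0.07 and 0.58 ± 0.12 (SD over 10 spots) on arrays 1 to 4. On array 4 every spot was above 0, from 0.35 to 0.78, and on the other arrays every spot was below 0, between -0.88 and -0.02. Arrays 3 and 4, of the same orientation, thus lay 0.70 apart in their means with no overlap of spots. The half-difference was -0.26 ± 0.14 (SE, n = 4 arrays, limma adjusted p = 0.24) and the four-array mean -0.03 ± 0.14, so neither number passed.

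**Figure D5:**
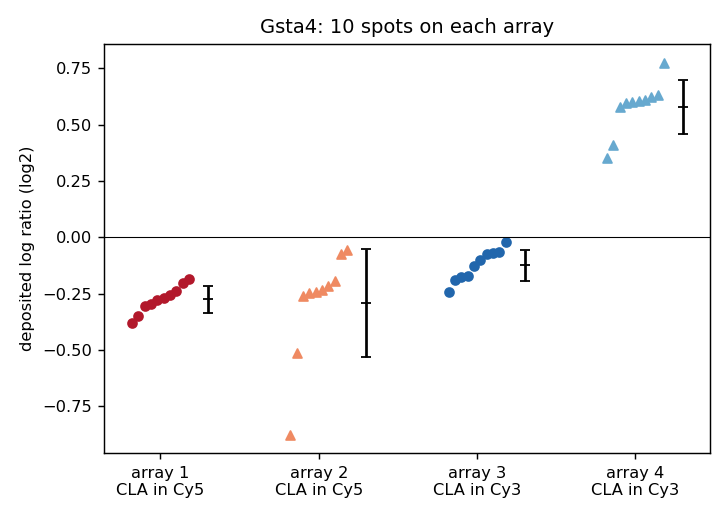
Log2 ratio (y axis) of the 10 Gsta4 spots on each of the 4 arrays, sorted within the array, with the mean and SD over spots as a black bar. All spots on array 4 lie between 0.35 and 0.78, above every spot on arrays 1 to 3.

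Of the other alpha-class genes, Gsta1, which follows Gsta4 on chromosome 9, showed the same array 4 value (0.58) with -0.23, -0.06 and -0.07 on arrays 1 to 3. Gsta3, the enzyme behind the resistance of mice to aflatoxin, read 0.11, 0.08, -0.54 and -0.57. Its orientations were tight and apart, and the half-difference of 0.33 ± 0.08 just missed the threshold (limma adjusted p = 0.051), with a four-array mean of -0.23 ± 0.08 (adjusted p = 0.36).

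The pi-class genes, which share a cluster on chromosome 19, gave the widest single value. Gstp3 read -0.75, -2.53, 0.38 and -0.39, and the -2.53 of array 2 was the lowest value of any member. Its half-difference was -0.82 ± 0.33 (limma adjusted p = 0.14) and its four-array mean -0.82 ± 0.33 (adjusted p = 0.37). Without array 2 these were -0.37 and -0.38, and without array 1 they were -1.26 and -1.26, with the half-difference then past the threshold (adjusted p = 0.049). Gstp1, the abundant pi-class enzyme, read -0.21, -0.22, -0.38 and 0.02, with a four-array mean of -0.20 ± 0.10 (adjusted p = 0.43).

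The theta-class genes, whose enzymes act on small halogenated molecules and sulfate esters, did not follow one pattern. Gstt2 read -0.16, -0.07, 0.77 and 0.45 (half-difference -0.36 ± 0.09, limma adjusted p = 0.061, or 0.043 with the surface trend removed). Gstt4 was positive on all 4 arrays but uneven, at 0.09, 1.27, 0.06 and 0.39, and its four-array mean went from 0.45 to 0.16 without array 2. Gstt1 and Gstt3 each had 1 high array, at 0.55 and 0.46, and half-differences of 0.17 and 0.13.

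The omega, zeta and kappa genes did not pass. Gstz1, the maleylacetoacetate isomerase of tyrosine breakdown, ranged from -0.25 to 0.12, and Gsto2 from -0.19 to 0.21. Gsto1, an omega-class thiol transferase, was positive on arrays 1 and 2 and negative on arrays 3 and 4, from -0.29 to 0.24, with a half-difference of 0.20. Gstk1, the organellar kappa-class enzyme, read -0.02, 0.00, -0.20 and -0.21 on arrays 1 to 4.

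Among the membrane-bound enzymes Mgst3, a glutathione-dependent peroxidase, was positive on all 4 arrays, at 0.15, 0.16, 0.14 and 0.27. Its 2 accessions were both above 0 on each array and gave four-array means of 0.11 and 0.25, for a gene value of 0.18 ± 0.08 (limma adjusted p = 0.39). Mgst1, the main microsomal form of liver, read -0.14, -0.16, -0.14 and 0.14. Mgst2 was negative on arrays 1, 3 and 4 and at 0.29 on array 2.

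Promoters are shown for genes that stood apart from a neighbour or a relative, so that their sequence can be set beside their ratios. RefSeq promoter windows of GRCm38.p6, 250 bases before to 50 after the start, were matched by symbol for 40 of the 46 genes, giving 52 windows. They were searched on both strands for the antioxidant response element core TGACNNNGC, the xenobiotic response element core GCGTG and the HNF1 half-site GTTAAT, of which the first can overlap the second. The antioxidant element was in 4 of 52 windows (7.69%, against 12.4% of all windows of the same length), those of Gsta3, Gstm5, Gstm7 and Mgst1. The xenobiotic element was in 11 (21.2%, against 32.4%) and the HNF1 half-site in 5 (9.62%, against 7.10%). The sequences run 5′ to 3′ on the gene's strand from 150 bases before to 50 after the start, with matches to these motifs in capitals.
Gsta3 promoter, chr1:21240435-21240634, plus strand: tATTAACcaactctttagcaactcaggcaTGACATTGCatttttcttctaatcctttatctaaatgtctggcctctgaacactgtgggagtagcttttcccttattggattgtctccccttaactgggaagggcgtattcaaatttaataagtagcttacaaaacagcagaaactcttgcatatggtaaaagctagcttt
Gstm2 promoter, chr3:107986371-107986570, minus strand: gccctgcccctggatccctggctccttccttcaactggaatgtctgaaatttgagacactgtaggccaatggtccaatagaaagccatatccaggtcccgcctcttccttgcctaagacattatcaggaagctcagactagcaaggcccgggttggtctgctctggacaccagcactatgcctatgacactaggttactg
Gstm5 promoter, chr3:107895704-107895903, plus strand: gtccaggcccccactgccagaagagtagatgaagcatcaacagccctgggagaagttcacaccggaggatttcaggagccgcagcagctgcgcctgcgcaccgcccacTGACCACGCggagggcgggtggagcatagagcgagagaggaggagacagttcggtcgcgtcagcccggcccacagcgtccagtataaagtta
Sult1d1 promoter, chr5:87568957-87569156, minus strand: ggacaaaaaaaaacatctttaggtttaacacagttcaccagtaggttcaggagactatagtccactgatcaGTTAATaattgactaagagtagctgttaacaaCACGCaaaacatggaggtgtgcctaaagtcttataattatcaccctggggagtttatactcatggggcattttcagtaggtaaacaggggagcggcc
Sult1e1 promoter, chr5:87591562-87591761, minus strand: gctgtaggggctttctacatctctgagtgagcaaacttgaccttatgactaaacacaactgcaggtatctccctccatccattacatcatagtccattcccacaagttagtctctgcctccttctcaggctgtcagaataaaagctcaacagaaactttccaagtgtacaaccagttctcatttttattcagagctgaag
Ugt2b1 promoter, chr5:86926454-86926653, minus strand: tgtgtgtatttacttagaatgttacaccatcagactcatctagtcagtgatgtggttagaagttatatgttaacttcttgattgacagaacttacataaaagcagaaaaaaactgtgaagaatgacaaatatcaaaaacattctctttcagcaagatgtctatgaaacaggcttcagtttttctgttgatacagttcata
Ugt2b37 promoter, chr5:87254739-87254938, minus strand: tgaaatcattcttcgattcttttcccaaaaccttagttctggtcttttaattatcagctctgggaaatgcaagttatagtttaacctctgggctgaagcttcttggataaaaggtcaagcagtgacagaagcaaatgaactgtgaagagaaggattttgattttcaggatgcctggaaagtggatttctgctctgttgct
Ugt2b38 promoter, chr5:87424154-87424353, minus strand: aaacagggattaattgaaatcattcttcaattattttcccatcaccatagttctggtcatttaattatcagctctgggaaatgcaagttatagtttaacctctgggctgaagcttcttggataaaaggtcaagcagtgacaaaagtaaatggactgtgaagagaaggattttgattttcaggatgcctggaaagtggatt

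Gsta3 and Gstm5 both carry the antioxidant core, from base -121 and base -42, but had half-differences of opposite sign, 0.33 and -0.21. In Gstm5 the match overlaps a xenobiotic core from base -38. Sult1d1 holds an HNF1 half-site from base -79 and a xenobiotic core from base -47. Its neighbour Sult1e1, with a half-difference of -0.01, holds no match to the 3 motifs in its window. Other sulfotransferase genes were mixed. The called Sult2a8 (0.81) and Sult1c2 (0.41) hold no match, the called Sult1b1 and Sult2b1 hold xenobiotic cores, and Sult1a1 (-0.36) holds an HNF1 half-site. The called Sult2a2, Ugt1a6b and Ugt3a2 had no window. A link between motifs and ratios was not tested. The windows of Ugt2b37 and Ugt2b38 are 86.9% identical in a global alignment, and the half-differences of these genes were 0.20 and 0.26. Ugt2b1, whose sign pattern differed, was 50.6% identical to Ugt2b37 and 48.3% identical to Ugt2b38. Between the mu-class windows the values were 45.1% to 49.7%. For genes with several windows only the one farthest upstream was aligned, so windows of related genes may be offset. Windows of unrelated genes were not aligned, so the identity found without relatedness is not known. A match is a description of letters and not a binding site.

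Genes that supply the cofactors had calls of both signs. Of 16 measured genes 2 were called for the half-difference (12.5%, against 17.1% of all genes), 1 in each direction. Gclc, the catalytic subunit of the rate-limiting enzyme of glutathione synthesis, read 0.56, 0.85, -0.18 and -0.35 (0.48 ± 0.09, limma adjusted p = 0.039). Papss2, a synthase of the sulfate donor, read -0.78, -0.42, 0.44 and 0.75 (-0.60 ± 0.11, adjusted p = 0.036). The sign of Papss2 was opposite to that of the 6 called sulfotransferase genes. Gclm, the modifier subunit, was at -0.29 ± 0.08 (adjusted p = 0.068).

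Other conjugation and hydrolysis genes had 5 of 17 called (29.4%, against 17.1% of all genes). Of these 3 were positive (17.6%, against 7.37%) and 2 negative (11.8%, against 9.72%). The list is small. Inmt, an amine N-methyltransferase, read 0.45, 0.35, -1.13 and -1.42 (0.83 ± 0.09, adjusted p = 0.021), much like Sult2a8, and Glyat, the glycine N-acyltransferase, read -0.36, -0.41, 0.40 and 0.65 (-0.45 ± 0.09, adjusted p = 0.038). Of 5 export pumps 0 were called in limma, with 4 at an unadjusted p under 0.05 (against 38.5% of all genes). The lowest adjusted p was 0.052, for Abcc2, the canalicular pump for conjugates.

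Among 11 measured regulators 3 were called (27.3%, against 17.1% of all genes). Nr1i3, which encodes the xenobiotic receptor CAR, read -0.34, -0.35, 0.85 and 0.86 (-0.60 ± 0.08, limma adjusted p = 0.025), and Nr1i2, which encodes PXR, was at -0.47 ± 0.08 (adjusted p = 0.032). Ahr, the aryl hydrocarbon receptor gene, was positive at 0.40 ± 0.08 (adjusted p = 0.039). Nr1i3 and Nr1i2 had the sign opposite to that of the called sulfotransferase genes, and Ahr had the same sign as those genes. A link between these receptors and the families was not tested. Of 9 Nrf2 targets outside the families 1 was called (11.1%), Pgd of the pentose phosphate pathway, at -0.66 ± 0.08 (adjusted p = 0.023). In the four-array mean 7 of these 9 were positive, and 0 of all genes in these 5 lists passed in limma, with 9 at an unadjusted p under 0.05. Over the whole array 50.1% of genes were positive in that number and 13.5% had an unadjusted p under 0.05.

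Markers of liver cell types were set beside the families as ratios. Each list is small, and 17.1% of all genes were called for the half-difference (7.37% positive and 9.72% negative). Of 7 measured hepatocyte markers 5 had a negative half-difference (median -0.25, 2 called), as had 4 of 5 cholangiocyte markers (median -0.30, 0 called) and 4 of 5 macrophage markers (median -0.42, 1 called). Stellate cell markers had 3 of 6 negative (1 called), endothelial markers 2 of 6 (0 called) and lymphocyte markers 0 of 5 (0 called). Pericentral hepatocyte markers had 4 of 8 negative in the half-difference (median -0.07, 0 called). Periportal markers had 3 of 5 negative (median -0.21), and 3 were called, 1 positive and 2 negative. In the four-array mean the 8 pericentral markers were all negative, with a median of -0.13 and values from -0.56 to -0.05. There 3 of 5 periportal markers were negative, with a median of -0.01. The four-array means of the 46 genes also lay mostly below 0. The part of cell makeup or zone in these values was not tested.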

How the data were processed

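Liver RNA pools were compared on 4 two-colour arrays. The authors deposited 1 log ratio per feature and array, taken here as log10 values. For background correction, normalization, centring, log base and direction nothing is given in the sources used here. No scanner intensities entered, and dim features could not be filtered. Of 22393 features, 18218 have 1 gene symbol, 16 several and 4159 none; the last 2 kinds were left out. Symbols came from the platform annotation, and all 46 members matched RefSeq gene numbers with 0 symbols changed. Accessions with at least 8 features were averaged as replicate spots, then probes per gene.

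The model was limma 3.58.1 (lmFit and eBayes, R 4.3.3) over all 16504 genes, with an intercept (the four-array mean) and a term of +1 or -1 for dye orientation (the half-difference), 2 residual and 2.66 prior degrees of freedom. Benjamini-Hochberg adjustment ran over all genes, with a threshold of 0.05. The fit was tested on simulated data with independent arrays, which does not cover shared pools. The members, gene lists and tests were chosen with earlier results of these data known. Named genes are members past the threshold, those with the largest estimate or smallest p in a family, those with 1 sign on all arrays and a fixed set; of each pathway list at most 2 by smallest p, with Gclm, the other subunit beside Gclc, and Ahr, the remaining called regulator, added after their values were seen. Alternatives were centring, scaling, no second coefficient, 1 feature per gene, averaged array pairs, robust moderation, a threshold of 0.10, leaving out each array and, added after seeing the data, removal of a smooth positional trend (loess, span 0.3). Array position was taken from the feature number on a grid of 215 columns and 105 rows. The xenobiotic and HNF1 motifs were added to the antioxidant one after seeing the data. Promoters were aligned with Biopython 1.88, and figures drawn with matplotlib 3.10.9.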

Additional observations from a re-analysis of the deposited data

Results flagged for a closer look

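A signal outside the named genes was found in features without a gene name. Of 4159 such features, 470 (11.3%) lay over 10-fold below 0 on both arrays 1 and 2 and over 10-fold above 0 on both arrays 3 and 4, with median log2 ratios of -8.70, -7.66, 8.80 and 8.54. The same size of change was seen in 7 of 18218 named features and in 0 of the 58 features of the conjugating enzymes. What these features carry is not given in the sources used here. Their sign changed with the dye orientation, so their meaning depends on the direction of the ratio. If the values are Cy5 over Cy3, their signal was far lower in the channel of the CLA pool. If the values were turned so that CLA is on top, they hold a dye effect. Which of these holds was not tested. No group of this design holds enough arrays for a check of single outlying arrays.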

How the results depend on the processing

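The number of members called for the half-difference, 9, depended on the setting. It was 17 at an adjusted p under 0.10, 5 with arrays scaled to one spread, 2 without the second coefficient, 0 with arrays 1 and 3 and arrays 2 and 4 averaged, and 5 with arrays 1 and 4 and arrays 2 and 3 averaged. It ran from 0 to 2 when single arrays were left out, where 1 residual degree of freedom remains and the lone array of an orientation is assumed to vary like the other orientation. All genes called moved too, to 5380 at the looser threshold, to 1955 when scaled, to 1202 without the second coefficient, to 125 and 1950 with averaged pairs, and to 544, 735, 0 and 0 without arrays 1 to 4, from 2820. Centring, 1 feature per gene and robust moderation each gave 7 members, all among the 9, and removing the positional trend gave 12, of which 8 were among the 9. In these 4 fits 2810, 2835, 2711 and 3543 of all genes were called, the last being 21.5% against 17.1%. No called half-difference changed sign in any of the 12 alternative fits, but most of these fits could not turn a sign. The averaged pairs, robust moderation and the fit without the second coefficient leave the estimate as it is. So does 1 feature per gene, as each called gene has a single feature. In every called gene arrays 1 and 2 lay on the opposite side of 0 from arrays 3 and 4, so leaving out an array cannot turn the sign. Sult1d1 kept its call in 8 of them, Sult2a8 and Sult2b1 in 7, Sult2a2 in 6, Gstm4 and Ugt3a2 in 5, Sult1c2 in 4, Sult1b1 in 1 and Ugt1a6b in 0. Among the alternatives that keep all 4 arrays, the four-array mean called 0 members with limma. At an unadjusted p under 0.05 the members ran from 1, without the second coefficient, to 11, with the positional trend removed. In these 2 fits 523 and 2215 of all genes had such a p, beside 8 members and 2235 of all genes in the main fit. Left-out arrays moved the half-difference medians between 0.27 and 0.42 (sulfate), 0.16 and 0.25 (glucuronide) and -0.06 and 0.03 (glutathione), and those of the four-array mean between -0.14 and -0.09, -0.10 and -0.03, and -0.10 and 0.04, so that the glutathione medians crossed 0. The row of a feature on the array had a Spearman rho of 0.38 with the four-array mean over all genes and of 0.16 over the members, and of -0.07 and -0.28 with the half-difference, as a description. The labels carry no replicate numbers that link arrays of opposite orientation, so both averaged pairings above are assumed ones. Signal over background was not available, so its limit on single ratios is unknown.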
